A study of Homo sapiens with 6 samples.

Results

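The genes described here are 9 liver-type secretory genes that are transcribed in lung cancer cell lines, the 3 fibrinogen chain genes FGA, FGB, and FGG, the complement genes C3, C1R, and C1S, the serine protease inhibitor genes SERPINA1 and SERPINA3, and LCN2. They were taken by gene symbol as 9 of the 46427 genes of the expression table, and each of the 9 had at least 1 read, as did 31353 genes of the table. RNA-seq was performed on total RNA of 3 non-small cell lung cancer (NSCLC) cell lines, H460 (large cell carcinoma), H1299 (from a lymph node metastasis), and A549 (lung adenocarcinoma). Each cell line gave 1 control library, whose treatment is labelled "non", and 1 library of cells transfected with a small interfering RNA against MALAT1 (si-MALAT1). The methods describe both negative controls and cells given a control siRNA and do not say which was sequenced, so an effect of transfection and one of MALAT1 cannot be told apart if the controls were not transfected. MALAT1 is a long noncoding RNA of nuclear speckles. The design asks how the RNA of these genes differs after si-MALAT1, and it also allows their levels to be compared between the cell lines. There is 1 culture per cell line and condition, so a cell line compared with another has 2 libraries that differ in treatment, and p-values measure the spread between these libraries only.

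In the liver, hepatocytes secrete these proteins into plasma, and most of them are acute phase proteins, whose synthesis changes in inflammation through interleukin-6 acting on STAT3 and interleukin-1 acting on NF-kB, together with C/EBP and other transcription factors of the liver. Fibrinogen is assembled from the Aα, Bβ, and γ chains encoded by FGA, FGB, and FGG, which thrombin converts to fibrin. C1r and C1s are the proteases of the first complement component, and C3 is the component on which the complement pathways converge. SERPINA1 encodes α1-antitrypsin, the main inhibitor of neutrophil elastase in the lung, SERPINA3 encodes α1-antichymotrypsin, and LCN2 encodes lipocalin 2, which binds bacterial siderophores and so withholds iron.

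The annotation places the fibrinogen genes in a single 49.8-kb locus of GRCh38, FGB at chr4:154562980-154572807 on the plus strand, and FGA at chr4:154583126-154590742 and FGG at chr4:154604134-154612808 on the minus strand. C1S (chr12:7060718-7071032, plus strand) and C1R (chr12:7080219-7092445, minus strand) share a 31.7-kb locus. SERPINA1 (chr14:94376747-94390654, minus strand) and SERPINA3 (chr14:94612391-94624053, plus strand) lie on the same chromosome, C3 is at chr19:6677704-6720650 on the minus strand, and LCN2 is at chr9:128149453-128153453 on the plus strand. All 9 genes are protein coding, and none of them overlaps another annotated gene.

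RefSeq promoter windows on GRCh38.p14, from 250 bases before to 50 bases after a transcript start, were matched for 7 of the 9 genes. They are printed 5′ to 3′ on the strand of the gene for the 3 fibrinogen genes, which showed large differences between cell lines and lie in a single locus. Capitals mark matches to the motifs searched on both strands.
FGA start 1: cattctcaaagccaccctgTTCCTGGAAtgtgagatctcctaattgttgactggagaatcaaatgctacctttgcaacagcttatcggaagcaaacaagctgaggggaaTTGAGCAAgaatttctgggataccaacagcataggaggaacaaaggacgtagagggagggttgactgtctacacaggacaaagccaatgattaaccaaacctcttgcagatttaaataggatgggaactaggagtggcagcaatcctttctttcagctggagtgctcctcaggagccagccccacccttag
FGB start 1: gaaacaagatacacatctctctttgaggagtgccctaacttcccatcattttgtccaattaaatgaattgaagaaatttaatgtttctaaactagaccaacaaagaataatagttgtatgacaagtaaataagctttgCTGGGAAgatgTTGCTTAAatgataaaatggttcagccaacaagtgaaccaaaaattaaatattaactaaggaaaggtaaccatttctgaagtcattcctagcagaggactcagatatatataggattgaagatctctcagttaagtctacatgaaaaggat
FGG start 1: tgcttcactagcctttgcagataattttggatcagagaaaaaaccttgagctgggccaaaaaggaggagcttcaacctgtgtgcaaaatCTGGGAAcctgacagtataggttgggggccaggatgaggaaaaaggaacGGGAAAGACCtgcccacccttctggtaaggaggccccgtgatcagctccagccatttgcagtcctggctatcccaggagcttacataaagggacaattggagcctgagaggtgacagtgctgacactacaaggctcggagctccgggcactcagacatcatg
These windows are chr4:154590693-154590992 (minus strand), chr4:154562730-154563029 (plus strand), and chr4:154612607-154612906 (minus strand).

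The motifs were the C/EBP motif TTGCNNAA, found in 10.5% of 35116 promoter windows, the STAT motif TTCNNNGAA (7.66%), the core CTGGGAA of the interleukin-6 response element (10.8%), the NF-kB motif, GGGA and CC with any 4 bases between them (25.6%), and TATAAA (11.5%). Positions are given for the first base of a match, counted upstream from -1 at the base before the transcript start. The windows of FGA and FGB start 1 each held a C/EBP match, at -141 and -101. FGA also held a STAT match at -231 and FGB an interleukin-6 core at -112. The FGG window held an interleukin-6 core at -161 and an NF-kB match at -112, without the letters of the C/EBP motif. The FGG start used lies inside the annotated span of the gene (chr4:154604134-154612808), and so does its NF-kB match. C1R start 1 held C/EBP, STAT, and NF-kB matches, SERPINA3 an NF-kB match at -67, and LCN2 a C/EBP match at -143 and overlapping NF-kB matches at -176 and -175. Neither window of SERPINA1 held a match, and TATAAA was in none of these windows. A match is a description of the letters and not a site of binding.

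**Figure D1:**
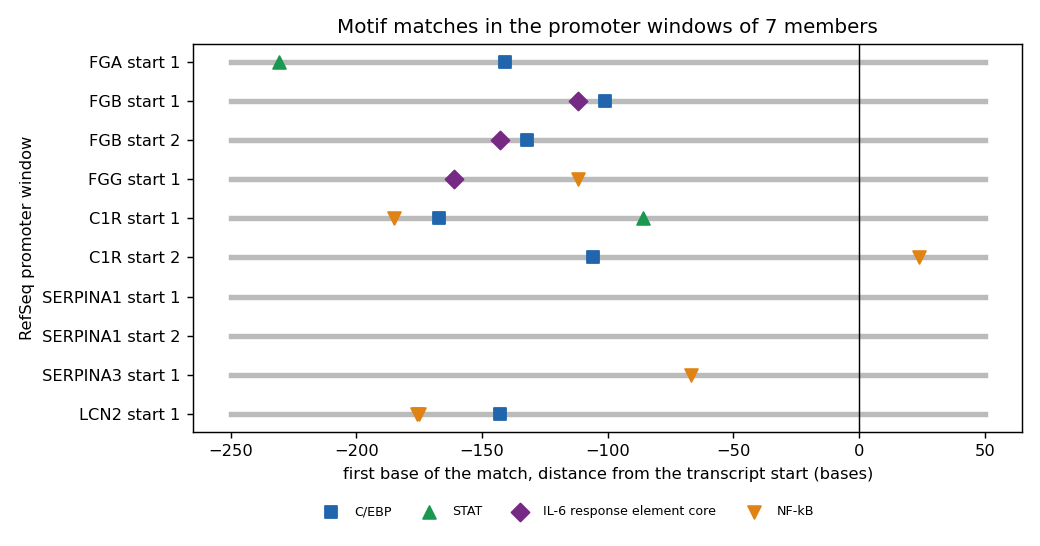
Motif matches in the RefSeq promoter windows of 7 of the 9 genes, by the distance in bases of the first base of a match from the transcript start. FGA, FGB, C1R, and LCN2 each hold a C/EBP match upstream of the start, between -167 and -101.

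The libraries held between 42506818 reads (A549 control) and 68515992 reads (H460 control). MALAT1 was lower after si-MALAT1 in each cell line, by a log2 fold change of -2.32 (H460), -2.96 (H1299), and -2.84 (A549; edgeR's paired quasi-likelihood test, adjusted p = 0.0381). The epithelial keratin genes KRT8 and KRT18 were read in all 6 libraries. TPM is the deposited level per transcript length and depth. CDH1 reached 27.8 and 39.4 TPM in A549 and at most 0.0468 TPM in the other cell lines. EPCAM was also highest in A549, at 196 and 485 reads, against at most 73 reads elsewhere. The keratin gene KRT19 was instead highest in H460, where it had 44567 and 33570 reads, against at most 121 reads elsewhere. The epithelial markers thus did not share a single order of cell lines. Of the 7 hepatocyte markers, 6 were at 0 in both libraries of H460 and of H1299. In A549, ALB (albumin) was at 0.0653 and 0.0641 TPM and TTR at 1.02 and 1.09 TPM, whereas APOH (apolipoprotein H) was at 34.0 and 76.8 TPM. Of the 6 leukocyte markers, 3 were at 0 in both libraries of each cell line. In such bulk samples, fewer cells with a transcript and less transcript per cell cannot be told apart.

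FGA was almost confined to A549. It had 11473 reads in the A549 control and 17311 after si-MALAT1, against 38 and 40 in H460 and 0 in both H1299 libraries. On the TPM scale its level was 144 and 192 in A549 and 0.177 in each H460 library. The FGA libraries of the 3 cell lines did not overlap. FGA was 481-fold higher in A549 than in H460 (edgeR's quasi-likelihood test with treatment as a term, adjusted p = 3.22e-05). With 3 reads as the limit that a count of 0 allows in a library, it was at least 7172-fold higher in A549 than in H1299 (adjusted p = 2.37e-05).

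FGB had the same order. It had 13748 and 15918 reads in A549 (108 and 113 TPM), 34 and 112 reads in H460 (0.160 and 0.518 TPM), and 0 and 10 reads in H1299. It was 263-fold higher in A549 than in H460 (adjusted p = 0.000195, edgeR) and 16.3-fold higher in H460 than in H1299 (adjusted p = 0.00757), where only the si-MALAT1 library held reads.

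FGG stood above FGA and FGB in H460. It had 8715 and 9335 reads in A549 (131 and 127 TPM), 917 and 1571 reads in H460 (8.56 and 14.0 TPM), and 0 and 9 reads in H1299. All H460 values lay above H1299 and below A549. FGG was 9.47-fold higher in A549 than in H460 (adjusted p = 0.00108, edgeR) and 305-fold higher in H460 than in H1299 (adjusted p = 0.000128).

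The 3 chains were therefore present in different proportions in the cell lines. In the A549 control, FGA made 37.6%, FGB 28.3%, and FGG 34.1% of a summed fibrinogen level of 383 TPM. After si-MALAT1 the shares in A549 were 44.5%, 26.1%, and 29.5% of 432 TPM. In H460, FGG made 96.2% of 8.90 TPM in the control and 95.3% of 14.7 TPM after si-MALAT1. A549 thus carried the RNA of all 3 chains in like amounts, and H460 mainly that of the γ chain. Fibrinogen made 82.4% and 79.5% of the summed TPM of the 9 genes in A549 and 15.9% and 24.8% in H460.

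**Figure D2:**
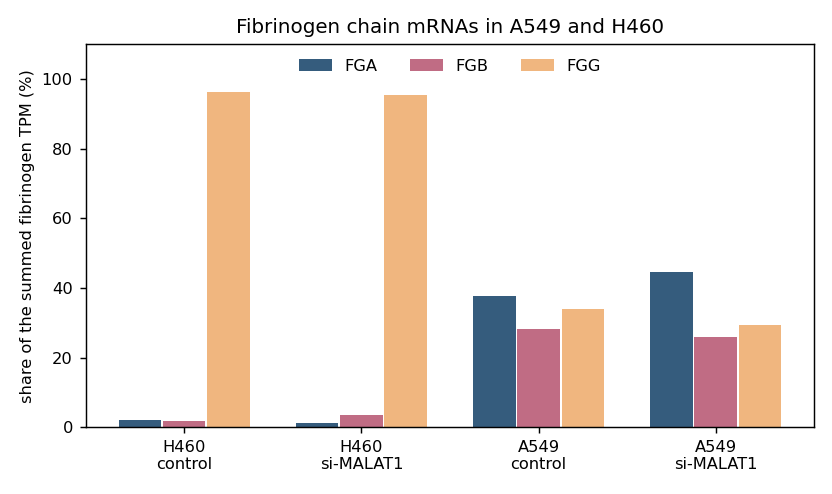
Share of each fibrinogen chain in the summed fibrinogen TPM (%) of each H460 and A549 library, 1 library per bar group. FGG makes 96.2% and 95.3% in H460, while in A549 each chain makes between 26.1% and 44.5%.

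The gene next to the fibrinogen locus, PLRG1 (a spliceosome component, 12.5 kb from FGB), lay between 17.6 and 27.6 TPM in the 6 libraries. Its libraries had the order of the fibrinogen genes, with those of A549 highest and those of H1299 lowest, within that narrow range. On the other side, LRAT was at most 0.715 TPM.

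C3 was present in A549 and H460 and nearly absent from H1299. It had 1856 and 5212 reads in A549 (10.1 and 25.6 TPM), 2753 and 2680 reads in H460 (9.03 and 8.46 TPM), and 16 and 0 reads in H1299. Both H1299 libraries lay below all others, and both A549 libraries lay above those of H460 on the TPM scale. On read counts scaled between libraries, the A549 control (2443) instead lay below both H460 libraries (2545 and 2622). Only the A549 si-MALAT1 library (6206) lay above them. C3 was 682-fold higher in A549 than in H1299 (adjusted p = 0.000340, edgeR) and 408-fold higher in H460 than in H1299 (adjusted p = 0.000347). The 1.67-fold higher mean of A549 over H460 did not pass the test (adjusted p = 0.348, log2 0.64 ± 0.49 SE).

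C1R and C1S, whose proteins act as a complex, showed the order of the C3 means. C1R had 1787 and 1954 reads in A549 (20.5 and 20.2 TPM), 1281 and 1457 reads in H460 (8.83 and 9.66 TPM), and 95 and 75 reads in H1299 (0.641 and 0.582 TPM). C1R was 1.79-fold higher in A549 than in H460 (adjusted p = 0.00841, edgeR) and 18.6-fold higher in H460 than in H1299 (adjusted p = 2.67e-05). The first call was lost without the H460 control or without either A549 library, with an adjusted p of up to 0.0951.

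C1S had 4078 and 5559 reads in A549 (42.4 and 51.9 TPM), 4650 and 4360 reads in H460 (28.9 and 26.3 TPM), and 54 and 21 reads in H1299 (0.339 and 0.147 TPM). It was 196-fold higher in A549 than in H1299 (adjusted p = 4.47e-05, edgeR) and 140-fold higher in H460 than in H1299 (adjusted p = 3.92e-05). A549 and H460 differed by 1.40-fold, which did not pass the test (adjusted p = 0.182), although it did without either H1299 library, with an adjusted p down to 0.0374. The ratio of C1S to C1R TPM was 3.28 and 2.72 in H460, 2.06 and 2.57 in A549, and 0.529 and 0.253 in H1299, so that C1S exceeded C1R in A549 and H460 but not in H1299.

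The neighbour C1RL, a C1r-like protease gene 2.11 kb from C1R, had another order, with 3.66 and 3.55 TPM in H460, 8.85 and 11.8 TPM in H1299, and 17.3 and 20.5 TPM in A549. C1RL was higher in H1299 than in H460 (H460 over H1299 0.401-fold, adjusted p = 0.00145, edgeR), whereas C1R was lower there.

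SERPINA1 was highest in H1299, the cell line in which the fibrinogen and complement genes were lowest. It had 2354 and 1996 reads in H1299 (13.3 and 12.7 TPM), 343 and 845 reads in A549 (3.14 and 7.14 TPM), and 0 reads in both H460 libraries. No library of one cell line overlapped those of another. SERPINA1 was 0.405-fold in A549 relative to H1299 (adjusted p = 0.0194, edgeR), a call lost without the H1299 control or the A549 control, with an adjusted p of up to 0.127. It was at least 255-fold higher in A549 than in H460 (adjusted p = 0.000450) and at least 630-fold lower in H460 than in H1299 (adjusted p = 0.000165).

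SERPINA3 was low in all cell lines. It had 161 and 184 reads in A549 (2.91 and 2.99 TPM), 97 and 35 reads in H1299 (1.06 and 0.438 TPM), and 18 and 0 reads in H460. It was 25.9-fold higher in A549 than in H460 (adjusted p = 0.00882, edgeR). The 4.02-fold higher mean of A549 over H1299 missed the threshold (adjusted p = 0.0566, and between 0.00580 and 0.490 over 10 alternatives). H460 was 0.155-fold of H1299 (adjusted p = 0.0450), a call that 5 of 10 alternatives kept, with adjusted p between 0.00401 and 0.179.

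LCN2 had 82 and 110 reads in A549 (2.86 and 3.41 TPM), 0 and 10 reads in H460, and 0 in both H1299 libraries, too few in too few libraries to pass the filter on low counts. Its mean was 24.4-fold higher in A549 than in H460 and at least 48.0-fold higher than in H1299. In a fit without that filter, edgeR's adjusted p was 0.0469 for the first difference and 0.0156 for the second. In fits that left out a library, the first was lost without the A549 control (adjusted p = 0.0925).

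In all, 6 of the 8 tested genes were higher in A549 than in H460 and none lower, where 18.9% of all tested genes were called higher and 19.3% lower. Against H1299, A549 was higher for 6 and lower for SERPINA1, with 24.4% and 24.5% of all genes. H460 was higher than H1299 for 6 and lower for both serpin genes, with 26.6% and 26% of all genes. The comparisons share libraries, and the genes of a locus are not independent of each other.

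**Figure D3:**
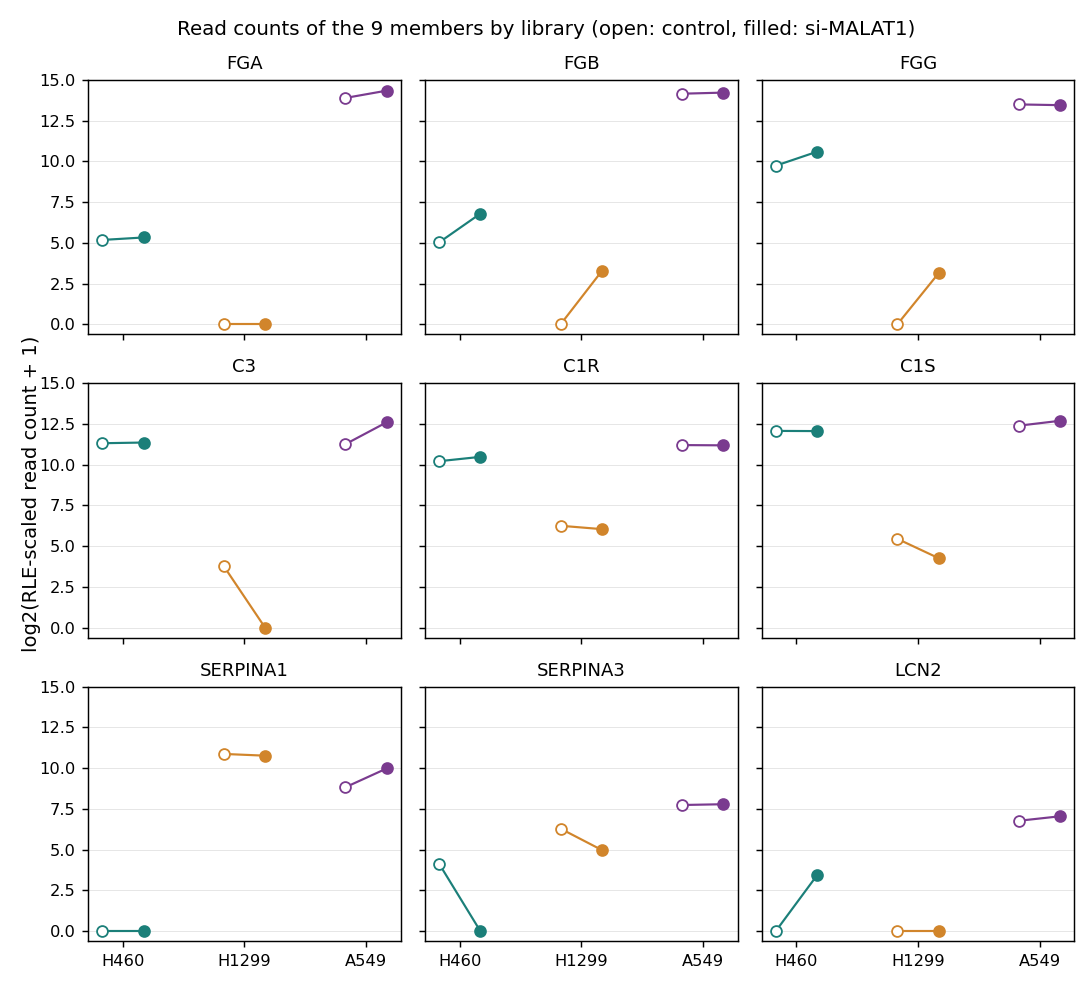
Read counts of the 9 genes on the scale log2(RLE-scaled count + 1), where RLE is a scaling by the median ratio to all libraries, with the control (open) joined to the si-MALAT1 library (filled) of each cell line. The 3 fibrinogen genes lie highest in A549, SERPINA1 lies highest in H1299, and the line of a gene within a cell line is mostly flatter than the gap between cell lines.

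The genes with the most similar profiles over the 6 libraries were found by the Euclidean distance between centred log2(TPM + 1) values. NTS (neurotensin) was nearest to FGA, at a distance of 0.438, with 222 and 243 TPM in A549 and at most 0.443 TPM elsewhere, followed by H3C3 (1.01) and HPGD (1.04). HPGD, a prostaglandin dehydrogenase gene, was nearest to FGB (0.372), followed by PON3 (0.540) and H2BC6 (0.880). H3C3 and H2BC6 are histone genes with near-identical copies, so that their reads are uncertain. CPLX2 was nearest to FGG (0.782), with 10.1 and 18.8 TPM in H460 and 87.4 and 105 TPM in A549, followed by EDN1 (0.894) and AKR1B15 (1.21). AQP3, a water and glycerol channel gene, was nearest to C3 (0.335), with TMEM47 (0.670) and TMEM37 (0.709) next. OCIAD2 (0.312) and PCSK5 (0.407) were near C1R, while FAM107B (0.550), LTBR (0.580), and DNAJC12 (0.611) were nearest to C1S. STEAP1 (0.429), LINC02506 (0.435), and LOC101929141 (0.540) were nearest to SERPINA1, and IER5L (0.209), HLA-DMA (0.344), and SDSL (0.353) to SERPINA3. The distance describes 6 libraries that differ mainly by cell line.

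After si-MALAT1, none of the 8 tested genes passed the paired test over the 3 cell lines, in which MALAT1 alone was called (0.00523% of all genes tested). The adjusted p lay between 0.439 and 0.953, and no unadjusted p was under 0.05. DESeq2 also called none of them, without an adjusted p for SERPINA3. The paired log2 fold changes were 0.34 ± 0.17 (SE) for FGA, 0.77 ± 0.45 for FGB, 0.47 ± 0.33 for FGG, 0.47 ± 0.48 for C3, 0.03 ± 0.14 for C1R, -0.09 ± 0.23 for C1S, 0.49 ± 0.32 for SERPINA1, and -1.15 ± 0.70 for SERPINA3. Changes in single cell lines are given below as values of 1 library against another, with exact 95% Clopper-Pearson intervals that cover counting error only. A change of 1.5-fold or more was counted for genes with at least 10 reads over both libraries of a cell line.

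In A549, C3 and SERPINA1 were higher after si-MALAT1. C3 went from 1856 to 5212 reads, a log2 fold change of 1.34 (interval 1.27 to 1.42), and SERPINA1 from 343 to 845 reads, a log2 fold change of 1.15 (0.97 to 1.34). FGA differed by a log2 fold change of 0.45 (0.41 to 0.48) and C1S by 0.30 (0.24 to 0.36), both under 1.5-fold. FGB (0.07), FGG (-0.05), C1R (-0.02), and SERPINA3 (0.05) lay near 0, and LCN2 was at 0.28 with an interval from -0.15 to 0.71. Thus 2 of 9 genes were higher by at least 1.5-fold and 0 lower, where 14.7% and 13% of all genes were.

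In H460, FGB and FGG were higher after si-MALAT1. FGB went from 34 to 112 reads, a log2 fold change of 1.77 (1.24 to 2.40), and FGG from 917 to 1571 reads, a log2 fold change of 0.86 (0.74 to 0.98). FGA, with 38 and 40 reads, was at 0.15 (-0.52 to 0.84). LCN2 went from 0 to 10 reads, at least 3.53-fold higher, and SERPINA3 from 18 to 0 reads, at least 5.67-fold lower. C3 (0.04), C1R (0.27), and C1S (-0.01) were under 1.5-fold. Thus 3 of 8 genes were higher and 1 lower, where 12.6% and 12.7% of all genes were.

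In H1299, the members with reads were mostly lower after si-MALAT1. C1S went from 54 to 21 reads, a log2 fold change of -1.19 (-2.03 to -0.48), SERPINA3 from 97 to 35 reads, a log2 fold change of -1.31 (-1.94 to -0.77), and C3 from 16 to 0 reads, at least 4.87-fold lower. FGB went from 0 to 10 reads, at least 3.65-fold higher. SERPINA1, the most abundant of the 9 genes in H1299, was at -0.11 (-0.19 to -0.02), and C1R at -0.21 (-0.67 to 0.24). Thus 1 of 6 genes was higher and 3 lower, where 15% and 13.4% of all genes were, and each of these 4 genes had under 100 reads in each library. FGG, with 0 and 9 reads, was not counted.

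**Figure D4:**
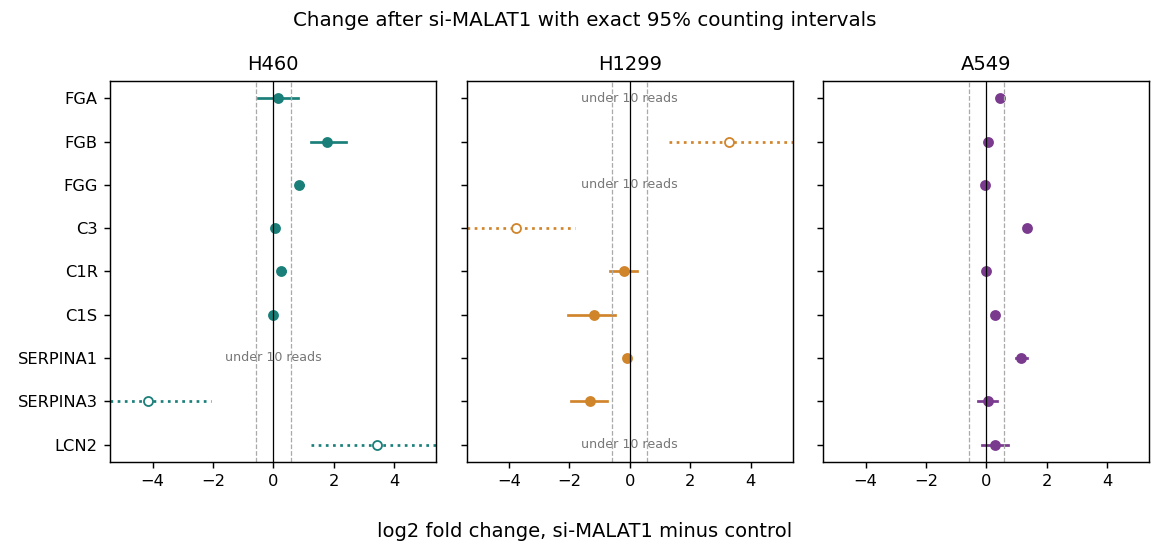
Log2 fold change of the 9 genes after si-MALAT1 in each cell line, as points with exact 95% counting intervals, 1 library per condition. Dashed lines mark 1.5-fold, open points with dotted lines have a library at 0 reads, and genes with under 10 reads have no point. C3 and SERPINA1 in A549 and FGB and FGG in H460 lie to the right of the upper dashed line.

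The median log2 fold change of the genes with at least 10 reads was 0.21 in H460 (8 genes), -0.70 in H1299 (6 genes), and 0.28 in A549 (9 genes), beside 0.01, 0.03, and 0.02 over all genes. No gene of the 9 was higher by at least 1.5-fold in more than 1 cell line except FGB, whose 2 increases started from 34 reads in H460 and 0 in H1299. SERPINA3 was lower by at least 1.5-fold in H460 and H1299, from 18 and 97 reads.

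Around the serpin genes, SERPINA6, which encodes corticosteroid-binding globulin and lies 53.4 kb from SERPINA1, had 0 reads in H460 and 8 and 0 in H1299. In A549 it went from 468 to 1411 reads (9.06 to 24.5 TPM), or 1.45 on the log2 scale (1.3 to 1.6). SERPINA10 went from 81 to 164 reads in A549, at 0.87 (0.48 to 1.28), and was at 0 elsewhere. SERPINA11 had no read. SERPINA6 was thus, like SERPINA1, higher in the A549 si-MALAT1 library, and it had at most 8 reads in H1299, where SERPINA1 was highest.

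Other complement genes were described from a list of 22, of which 12 had a read and 10 were tested. None passed the paired test, with an adjusted p of at least 0.423. At least 1.5-fold changes were counted for 2 higher and 1 lower of 8 genes in H460, where 12.6% and 12.7% of all genes were. They were 1 and 0 of 10 in H1299 (15% and 13.4% of all genes) and 1 and 2 of 9 in A549 (14.7% and 13%). C5, the component that starts the terminal pathway, was at 80.3 and 90.7 TPM in A549, 3.01 and 3.08 TPM in H1299, and 0.184 and 0.174 TPM in H460. It was 404-fold higher in A549 than in H460 and, unlike C3, lower in H460 than in H1299 (0.0722-fold, adjusted p = 2.56e-05, edgeR). CFB, the protease of the alternative pathway, was at 9.47 and 8.91 TPM in A549 and had 0 reads in H1299. CFD, which cleaves CFB, was at 7.96 to 13.8 TPM in all 6 libraries.

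Of 11 complement regulators, 10 had a read, and none passed the paired test. CD55, which speeds the decay of the C3 convertase, was highest in H460 with 577 and 232 TPM, beside 5.42 and 5.27 TPM (H1299) and 44.5 and 29.3 TPM (A549). After si-MALAT1 it differed by -1.18, -0.25, and -0.55 on the log2 scale, which did not pass the paired test (adjusted p = 0.194, edgeR). CLU (clusterin) was at 205 and 156 TPM in H460, 20.3 and 21.0 TPM (H1299), and 381 and 289 TPM (A549), and CD46 at 37.5 to 116 TPM in the 6 libraries. The membrane regulators CD46 and CD55 were therefore transcribed also in H1299, where the RNA of C3 was at most 16 reads.

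Of 27 coagulation and fibrinolysis genes, 23 had a read and 16 were tested, with none called in the paired test (adjusted p of at least 0.248). In H460, 2 of 16 were higher and 6 lower by at least 1.5-fold, with a median log2 fold change of -0.46, where 12.6% and 12.7% of all genes were. In H1299 it was 3 and 1 of 14 (median 0.26), beside 15% and 13.4% of all genes. In A549 it was 5 and 6 of 19 (median 0.08), beside 14.7% and 13%. SERPINE2, a thrombin inhibitor, was at 524 and 363 TPM in H460 and below 50 TPM elsewhere. TFPI2, a Kunitz-type protease inhibitor, differed by -1.05 in H460, 0.32 in H1299, and -0.64 in A549 on the log2 scale. PLAU (urokinase) was at -0.94, 0.02, and -0.71, and PLAUR, its receptor, at -0.83, -0.05, and -0.67. The urokinase pair was thus lower by over 1.5-fold in the H460 and A549 si-MALAT1 libraries.

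Of 20 other acute phase genes, 17 had a read and 6 were tested, and none was called in the paired test (adjusted p of at least 0.193). In A549, 7 of 11 were higher by at least 1.5-fold and 1 lower, where 14.7% and 13% of all genes were. Their median log2 fold change was 0.80 beside 0.02 over all genes. Among the 7 were genes with few reads, such as ORM1 (0 to 11 reads), TF (30 to 85 reads), and HPX (38 to 74 reads). CP (ceruloplasmin) was at 168 and 184 TPM in A549, 3.08 and 3.70 TPM in H460, and 6 and 0 reads in H1299, and was 42.7-fold higher in A549 than in H460 (adjusted p = 0.000131, edgeR). FGL1, a fibrinogen-like hepatokine, had 2269 and 4357 reads in A549 (log2 0.80, interval 0.72 to 0.87) and 0 elsewhere. LBP had 121 and 204 reads in A549 (0.61, interval 0.28 to 0.95) and 0 elsewhere. PTX3, a pentraxin not made mainly by the liver, was lowest in A549, with 18 and 10 reads there, 229 and 146 reads in H1299, and 768 and 335 reads in H460. Beside these, APOH went from 1397 to 3513 reads in A549, at 1.19 (1.10 to 1.28), in 1 library against 1.

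Of 22 regulators of acute phase genes, all had a read, and none was called in the paired test. HNF4A and FOXA2, transcription factors of the liver, were chosen after their values were seen. HNF4A was at 16.4 and 22.9 TPM in A549 and had 0 reads in the other cell lines. FOXA2 was at 12.1 and 15.5 TPM in A549 and at most 0.148 TPM elsewhere. In A549 the log2 fold changes were 0.51 for HNF4A (0.44 to 0.57) and 0.35 for FOXA2 (0.24 to 0.47). These factors were thus read in the cell line with the highest fibrinogen, and their part in that level was not tested. HNF4A was at 0 in H460, where FGG was read, and in H1299, where SERPINA1 was read. Its part in those levels was not tested either.

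IL6 was at 154 and 70.7 TPM in H460, at 0 in H1299, and at 0.388 and 0.167 TPM in A549. After si-MALAT1 it differed by log2 -0.97 in H460 (-1.02 to -0.92) and by -0.91 in A549 (-2.11 to 0.14), with a paired adjusted p of 0.114. SOCS3, the feedback inhibitor of STAT3 signaling, was at 180 and 175 TPM in H460, 15.1 and 9.33 TPM (H1299), and 31.6 and 33.1 TPM (A549). IL6ST, the signaling chain of the interleukin-6 receptor, was at 44.6 to 56.4 TPM in all 6 libraries. NR3C1, the glucocorticoid receptor gene, had log2 fold changes of 0.60, 0.49, and 0.48 in H460, H1299, and A549 (paired adjusted p = 0.126). IL6R, which binds interleukin-6 and was also chosen after its values were seen, had the smallest adjusted p of the list, 0.0734, and was higher by log2 1.25, 1.5, and 2.09 in the 3 cell lines. IL6 and SOCS3 were highest in H460, while fibrinogen, C5, and CP were highest in A549. A part of IL6 in these levels was not tested.

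**Figure D5:**
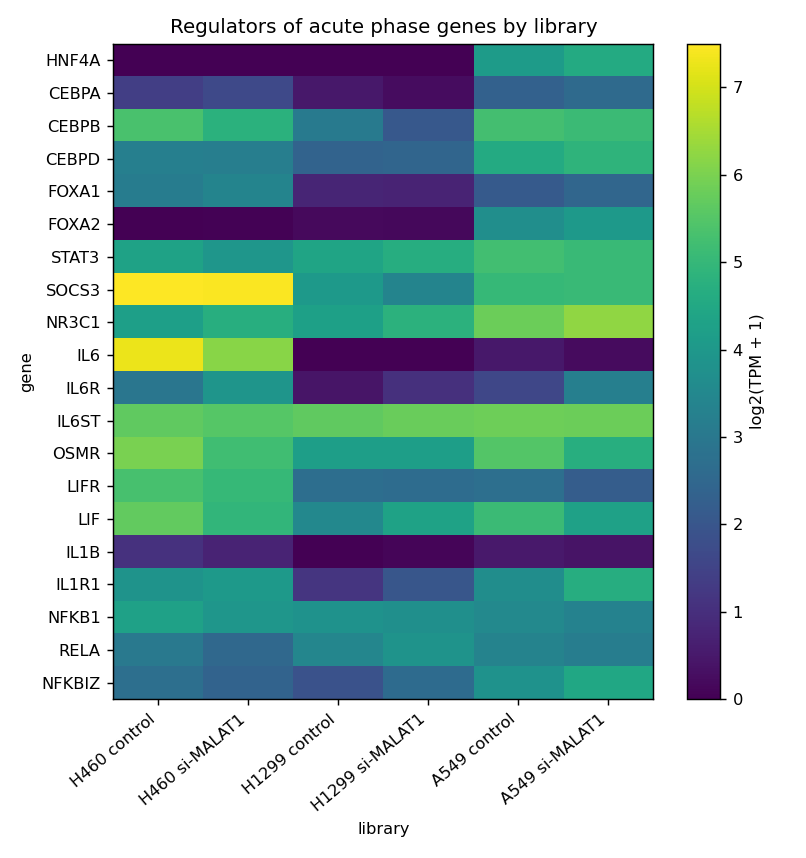
Levels of 20 regulators of acute phase genes in the 6 libraries as log2(TPM + 1), on a color scale from 0 to 7.5. HNF4A and FOXA2 are near 0 in H460 and H1299 and above it in A549, and IL6 is highest in H460.

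Of 13 secretory pathway genes, which fold and export such proteins, all were tested and none was called in the paired test (adjusted p of at least 0.158). CANX was at 200 to 504 TPM, CALR at 239.5 to 346 TPM, P4HB at 167 to 408 TPM, and PDIA4 at 96.9 to 288 TPM over the 6 libraries. The list had 0 of 13 genes changed by at least 1.5-fold in H460, where 12.6% of all genes were higher and 12.7% lower. In H1299, 3 were higher and 1 lower (15% and 13.4% of all genes). In A549, 1 was higher and 0 lower (14.7% and 13%).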

How the data were processed

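RNA-seq reads of 6 libraries (control and si-MALAT1 of H460, H1299, and A549) were trimmed, aligned to hg38 with HISAT2 2.1.0, and quantified per gene with StringTie (2.1.3b in the methods, 1.3.4b in the submitters' processing notes) on NCBI annotation 109.20200522. The authors deposited whole-number read counts, which are not normalized, and TPM and FPKM values scaled for length and depth. FPKM was not used. Whether counting used the strand of the stranded kit is not given in the sources used here. Another 18 columns of per-sample values were not used, and the deposited annotation gave the coordinates.

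Read counts were tested with edgeR 4.0.16 (TMM, filterByExpr, quasi-likelihood test, Benjamini-Hochberg over 19122 genes, adjusted p under 0.05) on cell line and treatment, with 2 residual degrees of freedom. Libraries were paired by cell line. Their deviations from the group means correlated at 0.876 (H460), 0.910 (H1299), and 0.862 (A549). Within a cell line, log2(RLE-scaled count + 1) was compared without a test, with the 95% intervals taking the counts as whole reads. A fold against a group at 0 used 3 reads per library as a lower bound. The tests were tried on simulated counts in which the response did not vary between cell lines. The trial therefore does not show the power of the paired test on these data. Alternatives were DESeq2 1.42.0, other scalings, filters and pseudocounts, no block, and leaving out libraries.

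Named were the 9 genes, MALAT1, up to 4 genes per list with the highest mean TPM, the 3 nearest profiles per tested gene, neighbours in the annotation, and markers. CDH1 and the regulators said to be so were chosen after their values were seen. The genes and lists were chosen with earlier results of these data known. Some genes of the lists and profiles are not reported here.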

Additional observations from a re-analysis of the deposited data

Results flagged for a closer look

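The genes FGG, C3, C1S, and SERPINA1 had log2 fold changes of opposite sign after si-MALAT1 in a pair of cell lines, with counting intervals on either side of 0. With 1 library per cell line and condition, the difference between the cell lines was not tested for any of them. FGG was higher in H460 (917 to 1571 reads) and at -0.05 in A549, with an interval from -0.09 to -0.003, a difference of 0.90 on the log2 scale. That A549 value lay near 0, and its interval does not cover the choice of scaling. It was -0.015 with scaling by the library total and -0.064 with TMM scaling. SERPINA1 was higher in A549 (343 to 845 reads) and at -0.11 in H1299, a difference of 1.26. That H1299 value also lay near 0, at -0.12 with TMM scaling and -0.056 on the log2(TPM + 1) scale. C1S was at 0.30 in A549 and went from 54 to 21 reads in H1299, a difference of 1.49. C3 was higher in A549 (1856 to 5212 reads), while its 16 reads in H1299 were followed by 0, and the difference was 3.16 when the H1299 change was set at the end of its interval nearest to 0. The values for C1S and C3 rest on under 100 reads per H1299 library.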

How the results depend on the processing

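None of the 9 genes was called in the paired test under any of 7 alternatives. LCN2 was tested in 3 of these only, and SERPINA3 had no adjusted p with DESeq2. The unadjusted p of edgeR was under 0.05 for 2 genes without H1299 and for 1 without A549. Among all genes, the 1 call became 1140 with DESeq2 (563 higher and 577 lower), 0 without the filter on low counts, 0 without the replicate block, and 0 to 163 without a cell line, the 163 calls arising without H460. The cause was not tested. Of the paired values of single genes, 50 kept their direction and side of the threshold and 6 changed sign without being called, which were C3 at -0.76 with DESeq2 and -0.38 without A549, C1R at -0.10 without H460, C1S at 0.15 without the block and 0.14 without H1299, and SERPINA1 at -0.14 without A549. Leaving out a cell line in turn gave -0.38 to 0.95 for C3, -0.10 to 0.12 for C1R, -0.39 to 0.14 for C1S, and -0.14 to 1.15 for SERPINA1. It also gave 0.15 to 0.46 for FGA, 0.29 to 2.41 for FGB, 0.16 to 1.14 for FGG, and -2.32 to -0.60 for SERPINA3. FGB was at 1.92 and FGG at 1.37 with DESeq2, and at 0.05 and 0.02 without the block. The genes changed by at least 1.5-fold numbered 1 in H460 and 0 in H1299 on the log2(TPM + 1) scale, which shrinks low levels, and 2 in H1299 and 0 in A549 with a log2 fold change of 1.5 as the limit. Within cell lines, 75 values stayed within their counting interval and 17 did not. Between cell lines, 5 to 8 genes were called for A549 against H460, 7 to 9 for A549 against H1299, and 7 to 9 for H460 against H1299, with LCN2 tested in some fits only. The replicate block changed no other call. Counts under 100 reads in a library limit FGA, FGB, SERPINA3, and LCN2 in H460, LCN2 in A549, and all members but SERPINA1 in H1299.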

Other observations

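Further genes of the lists were read in A549 and had 0 reads in both other cell lines, and the following were chosen after their values were seen. C4BPA, a chain of the C4b-binding protein, went from 46 to 221 reads in A549 after si-MALAT1, or 2.1 on the log2 scale (exact 95% counting interval 1.66 to 2.61). AGT (angiotensinogen) went from 41 to 175 reads, at 1.93 (1.45 to 2.48), AHSG (fetuin-A) from 45 to 169 reads, at 1.75 (1.28 to 2.27), and coagulation factor gene F5 from 207 to 406 reads, at 0.82 (0.58 to 1.08). F13B, with 150 and 154 reads, was at -0.11 (-0.44 to 0.23). Each is 1 library against another, without a test.

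SERPIND1, which encodes heparin cofactor II, was read in H460 alone. It had 1223 and 804 reads there, a log2 fold change of -0.52 (-0.65 to -0.39), and 0 reads in H1299 and A549. VTN (vitronectin), in contrast, had 1240 and 946 reads in H460, 1234 and 1112 in A549, and 0 in H1299.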
